A study of Zea mays with 9 samples.

Results

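Leucine-rich repeat receptor kinases are plant membrane proteins with leucine-rich repeats outside the cell and a protein kinase domain inside it. The repeats bind peptides, steroids or fragments of microbes, and many of these receptors signal only once the ligand has brought them together with a short co-receptor of the SERK class. Cytoplasmic kinases, oxidases that make reactive oxygen and calcium channels act after the receptor. In leaves the family is known for sensing microbes and danger peptides, for brassinosteroid responses and for guiding growth. The genes described here were every row of the maize count table with a kinase domain (Pfam PF00069 or PF07714) and a leucine-rich repeat entry (PF08263, PF00560, PF13855 or PF13516) and without the NB-ARC domain (PF00931) of intracellular immune receptors. That rule found 210 of 39755 genes, on all 10 chromosomes (12 to 27 on each) and with 1 on an unplaced scaffold. They were set in 13 role groups, with the remaining 57 genes as other members, by the protein entry each gene carries. That entry names the most similar described protein, taken from Arabidopsis for 161 genes, from rice for 38 and from maize itself for 1 (THICK TASSEL DWARF1). A name below is therefore that of the entry and not of a maize gene.

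The study concerns Zip1, a phytocytokine of maize, which is a short signalling peptide cut from a larger precursor. Its RNA sequencing compared leaf 2, cut from 8-day-old seedlings of the cultivar Golden Bantam, filled with liquid under a vacuum of 60 mbar and sampled 6 h later. The groups were 5 µM Zip1 peptide (Zip1), 2 mM salicylic acid, the hormone of pathogen responses (SA), and water with 0.1% DMSO (mock), with 3 libraries each. Whether the Zip1 and SA solutions held DMSO is not stated. All leaves were detached and infiltrated, so no group shows the intact leaf. The labels do not say whether the libraries came from separate plants, and p-values measure the spread between these libraries, which may be technical.

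The 9 libraries held 28840453 to 38794412 counts, and replicates differed by more than counting noise in every pair. A level is a gene's count per kilobase of its length in a library scaled to 1000000 counts. As a check of the tissue, the levels of the genes of phosphoenolpyruvate carboxylase 1, a mesophyll enzyme, summed to 5500 to 8329 in Zip1, 5285 to 6420 in SA and 5961 to 7086 in mock libraries, and 24 kernel zein genes to at most 0.283. Pyruvate phosphate dikinase 1, also a mesophyll enzyme, summed to 6367 to 7711 in Zip1, 7070 to 8545 in SA and 8384 to 9540 in mock libraries, with all Zip1 libraries below mock. Genes of 3-ketoacyl-CoA synthase 6, an enzyme of epidermal wax, summed to 104 to 193 in Zip1, 92.9 to 163 in SA and 202 to 231 in mock libraries. The other photosynthetic marker lists, malate dehydrogenase, carbonic anhydrase, malic enzyme, the Rubisco small subunit and phosphoenolpyruvate carboxykinase, overlapped with mock in both treated groups. The part of these markers in the results was not tested. In whole leaves, fewer cells of a type and less RNA per cell cannot be told apart.

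Most of the receptor kinases were expressed at low levels. Of the 210 genes, 148 had enough counts to be tested, 39 had counts but too few, and 23 had none in any library. In mock leaves the tested receptor kinases had a median level of 1.24, against 5.06 for all 23077 tested genes. A level of 10 or more was reached by 11 of the 210 genes, 72 lay between 1 and 10, and 127 were under 1. The 10 highest held 45.2% of the summed mock level of 446. The whole family took 0.144%, 0.161% and 0.173% of counts in the Zip1 libraries, 0.177%, 0.161% and 0.144% in the SA libraries, and 0.143%, 0.139% and 0.162% in the mock libraries. These shares overlapped between all 3 groups.

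The co-receptor class led the order of levels. Of the 10 highest genes in mock leaves, 7 belonged to the SERK group, which holds rice SERK2, BAK1 and SERK-like (SERL2) entries. SERK proteins pair with ligand-binding receptors in Arabidopsis and rice, and what the SERL2 protein does is less well known. The highest was a SERK2 gene of chromosome 1, Zm00001eb054260, at a mean level of 56.1 in Zip1, 56.0 in SA and 45.3 in mock leaves. A SERK2 gene of chromosome 4, Zm00001eb182940, followed at 28.0 in Zip1, 26.0 in SA and 36.4 ± 3.51 in mock leaves (SD, n = 3), well above the next. Then came a SERL2 gene (Zm00001eb280280, 19.9 ± 1.54 in mock) and the malectin-type kinase At1g56130 (Zm00001eb430990, 19.8 ± 0.911 in mock), whose levels did not differ beyond their spread. Likewise BAK1 (Zm00001eb414790, 15.6 ± 1.68) and another SERL2 gene (Zm00001eb380430, 14.9 ± 0.515) were within their spread in mock leaves, as were 2 SERK2 genes (Zm00001eb244860 at 13.8 ± 1.01 and Zm00001eb167150 at 13.6 ± 1.32). The 10 were completed by the tyrosine-sulfated glycopeptide receptor 1 (Zm00001eb207890, 11.1 ± 2.9), a receptor for the growth peptide PSY1 in Arabidopsis, and THICK TASSEL DWARF1 (Zm00001eb228140, 11.0 ± 1.92), a maize receptor that restrains the inflorescence meristem. Among tested genes the median mock level was 14.3 in the SERK group (10 genes), 4.28 in the HAESA, CEPR and RGI class (9), 1.21 in the kinases described as inactive (24), 0.840 in the CLAVATA1 and BAM class (14), 0.584 in the pattern and danger receptors (19) and 0.175 in the ERECTA class (2). The pollen and pollen tube receptors had 6 of 11 genes with no count and 2 that were tested. The same 10 genes were the highest by the authors' FPKM.

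**Figure D1:**
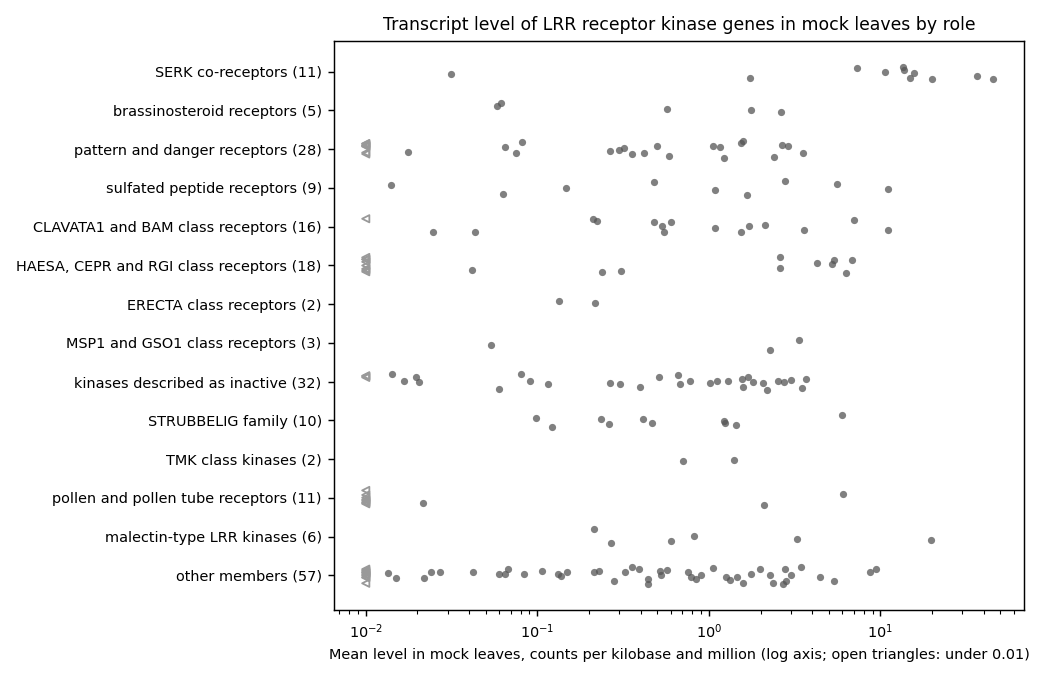
Mean level of each of the 210 receptor kinase genes in mock leaves (n = 3), in counts per kilobase of a library scaled to 1000000 counts, on a log axis, by role group with the number of genes in brackets. Each point is a gene and open triangles are genes under 0.01; the SERK group holds the highest genes, up to 45.3, and most pollen genes lie at the left edge.

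The receptor kinases as a family did not move one way with either treatment. A gene is called when its adjusted p over all 23077 tested genes is under 0.05 in edgeR's quasi-likelihood test, with a log2 fold change fitted to all 9 libraries. Zip1 against mock called 4 receptor kinases, all higher, which is 2.7% of the 148 tested, and the background over all tested genes was 0.884% (0.823% higher). SA against mock called 12, 8 of them higher and 4 lower, which is 8.11%, against a background of 6.22% (5.11% higher and 1.11% lower). Zip1 against SA called 11, 6 of them higher and 5 lower with Zip1, which is 7.43%, against a background of 4.11% (1.56% higher and 2.56% lower). An unadjusted p under 0.05 was found for 36, 36 and 39 of the 148 tested receptor kinases in these comparisons. Of all 23077 tested genes, 2652, 4371 and 4019 had such a p. DESeq2's Wald test called 14 for Zip1 against mock, 8 higher and 6 lower, against a background of 3.59%. It called 20 for SA against mock and 26 for Zip1 against SA, against backgrounds of 9.41% and 7.59%. The median log2 fold change of the tested receptor kinases was −0.13 for Zip1 against mock, −0.13 for SA against mock and 0.05 for Zip1 against SA, and over all tested genes it was −0.01, −0.04 and 0.01.

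In all, 17 receptor kinases were called in at least 1 comparison. The Zip1 and SA comparisons share their mock libraries and are not independent. Called for both was 1 gene, higher with both. Another 3 were called for Zip1 against mock and not for SA, and all 3 also differed between Zip1 and SA. The 11 called for SA and not for Zip1 included 6 that differed between the treatments. The remaining 2 were called between the treatments and in neither comparison with mock. Of the 17, 13 lay above the median level of the tested receptor kinases over the 9 libraries, which was 1.11, and 4 at or below it. How the calls of all tested genes split in these ways was not counted, so no trait of the family is read from these numbers.

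**Figure D2:**
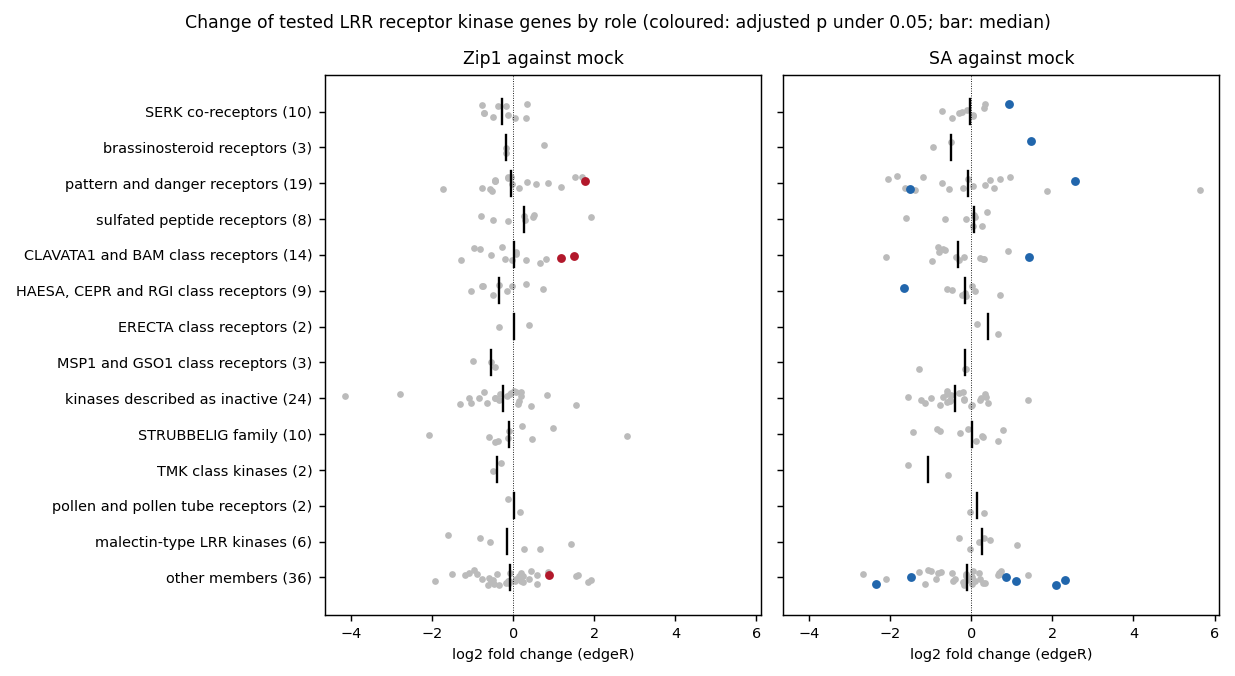
Log2 fold change (edgeR) of the 148 tested receptor kinases by role group, with the number tested in brackets, for Zip1 against mock on the left and SA against mock on the right. Points are genes, coloured where the adjusted p is under 0.05 (4 and 12 genes), and bars are group medians; called genes lie in 3 groups with Zip1 and in 6 groups with SA.

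Among receptors of microbial patterns and danger peptides, 1 of 19 tested genes rose with Zip1, and 1 rose and 1 fell with SA. The calls are 5.26% for Zip1 and 10.5% for SA, against 0.884% and 6.22% of all tested genes. The median log2 fold change of these 19 was −0.06 with Zip1 and −0.07 with SA. The single gene with an FLS2 entry rose with Zip1. FLS2 is the receptor of bacterial flagellin, first described in Arabidopsis. This gene, Zm00001eb070510 (chromosome 2, 9877378 to 9881780, plus strand, build not given in the sources used here), had 1504, 1323 and 2093 normalised counts in the Zip1 libraries, 920, 705 and 509 in the SA libraries and 336, 621 and 478 in the mock libraries. Every Zip1 library stood above every other library, and SA and mock libraries overlapped. The log2 fold change was 1.78 for Zip1 against mock (SE 0.282, adjusted p = 0.0216) and 1.20 for Zip1 against SA (SE 0.277, adjusted p = 0.0357), while that of SA against mock was 0.57 (adjusted p = 0.297). The Zip1 call was lost without mock replicate 1 (adjusted p = 0.113) or Zip1 replicate 3 (adjusted p = 0.0594). The direct difference passed in 5 of the 9 fits without 1 library, with adjusted p up to 0.132 without Zip1 replicate 3, and was 0.0538 under the replicate block.

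Xa21, a rice receptor kinase for resistance to bacterial blight, was the entry of 14 genes, of which 10 were tested and 1 was called. Zm00001eb085590 (chromosome 2, 74218637 to 74221794, plus strand) had 226, 153 and 203 normalised counts in Zip1, 102, 94.9 and 96.9 in SA and 210, 268 and 359 in mock libraries. All SA libraries lay below all others, and the Zip1 and mock libraries overlapped. It fell with SA by 1.51 on the log2 scale (SE 0.273, adjusted p = 0.00731) and kept this call without any 1 of the 9 libraries. The other Xa21 genes did not share one direction in their values with SA. Zm00001eb209330 had 10.8, 77.1 and 38.8 normalised counts in SA and 163, 216 and 155 in mock libraries, without overlap (log2 fold change −2.06, adjusted p = 0.0736), whereas Zm00001eb219540 had 204, 118 and 74.3 in SA and 20.9, 23.9 and 63.0 in mock libraries, also without overlap (log2 fold change 1.87, adjusted p = 0.106). Zm00001eb170520, which overlaps a glycosyltransferase gene by 109 bases, had 18, 22 and 79 counts in SA and 0, 2 and 0 in mock libraries. With mock at the floor of 3 counts per library, the mean of the SA libraries was at least 13.1-fold higher, drawn up by the 79 counts of SA replicate 3. The difference was not called (adjusted p = 0.0629, and 0.288 without SA replicate 3). DESeq2's Wald test called each of these 3 genes. They were named after their values were seen.

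A gene of low level was called among the kinases with the entry At3g47570, which belong to the Arabidopsis class of the bacterial EF-Tu receptor EFR. Zm00001eb134650 (chromosome 3, 111924126 to 111932993, minus strand) had 23.4, 49.5 and 21.9 normalised counts in Zip1, 68.3, 75.5 and 50.6 in SA and 10.4, 18.5 and 3.94 in mock libraries. The 3 groups did not overlap, with Zip1 between SA and mock. The rise with SA was 2.56 on the log2 scale (SE 0.643, adjusted p = 0.0391), and that of Zip1 against mock, at 1.53, was not called (adjusted p = 0.379). The SA call passed in 4 of the 9 fits without 1 library and was lost, for example, without mock replicate 1 (adjusted p = 0.119), and when the Zip1 libraries were left out of the fit (adjusted p = 0.0503). The only gene with a PEPR1 entry, the receptor of danger peptides in Arabidopsis, was Zm00001eb034800. It was listed at 0, 0 and 1.90 normalised counts in Zip1, 2.17, 6.49 and 0 in SA and 6.26, 14.1 and 0.985 in mock libraries, and was too low to test.

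In the CLAVATA1 and BAM class, whose receptors bind CLE peptides that steer meristems, 2 of 14 tested genes rose with Zip1 and 1 rose with SA, with median log2 fold changes of 0.01 and −0.34. The calls are 14.3% of the class for Zip1 and 7.14% for SA, against 0.884% and 6.22% of all tested genes. The called genes of the class carried the entry HAR1, which in Lotus japonicus limits the number of root nodules. Zm00001eb153630 (chromosome 3, 204443250 to 204447228, minus strand) was the one receptor kinase called for both treatments. It had 293, 408 and 407 normalised counts in Zip1, 391, 369 and 299 in SA and 103, 171 and 117 in mock libraries. Both treated groups lay above all mock libraries and overlapped each other. Its log2 fold change was 1.50 with Zip1 (SE 0.254, adjusted p = 0.0256), 1.43 with SA (SE 0.254, adjusted p = 0.00647) and 0.06 for Zip1 against SA (adjusted p = 0.935). The SA call held without any 1 library. The Zip1 call passed in 5 of the 9 such fits and was lost without mock replicate 1 (adjusted p = 0.129), mock replicate 3, Zip1 replicate 2 or Zip1 replicate 3.

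A HAR1 gene of chromosome 6 rose with Zip1 and was also higher with Zip1 than with SA. Zm00001eb293660 (171698140 to 171702478, plus strand) had 488, 499 and 563 normalised counts in Zip1, 269, 256 and 308 in SA and 191, 272 and 224 in mock libraries. Every Zip1 library was above every other one. It rose by 1.17 on the log2 scale against mock (SE 0.198, adjusted p = 0.0255) and by 0.90 against SA (SE 0.197, adjusted p = 0.0294). Each of these calls passed in 3 of the 9 fits without 1 library, with adjusted p up to 0.128 without mock replicate 1 and 0.112 without Zip1 replicate 3. The gene overlaps a Hexokinase-5 gene on the opposite strand by 724 bases, and whether counting used the strand is not stated, so reads of the pair cannot be told apart. That neighbour averaged 435 normalised counts in Zip1, 380 in SA and 411 in mock. The HAR1 gene of chromosome 5, Zm00001eb239600, had 308, 382 and 526 normalised counts in Zip1, 1086, 566 and 549 in SA and 335, 396 and 440 in mock libraries, and its SA difference of 0.91 was not called (adjusted p = 0.104). RPK2 (Zm00001eb214630), a meristem receptor of Arabidopsis, and THICK TASSEL DWARF1 were not called, with log2 fold changes of 0.08 and −0.54 for Zip1 and 0.22 and −0.19 for SA against mock. Zm00001eb298670 and Zm00001eb326880, also with the entry RPK2, had −0.96 and −0.03 for Zip1 and 0.32 and −0.65 for SA, and edgeR called neither. DESeq2's Wald test called Zm00001eb298670 lower with Zip1 than with SA (log2 fold change −1.3, adjusted p = 0.0383).

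Among the SERK group, 1 of 10 tested genes was called, and it rose with SA. The median log2 fold change was −0.28 with Zip1 and −0.03 with SA. For Zip1 against mock 5 genes had an unadjusted p under 0.05, edgeR called 0 and DESeq2's Wald test called 2. Over all 23077 tested genes 2652 had such a p, and edgeR called 0.884%. DESeq2's Wald test called 3.59% of the genes it tested. Zm00001eb167150, a SERK2 gene (chromosome 4, 7132852 to 7140339, plus strand), had 1406, 1417 and 1712 normalised counts in Zip1, 3793, 3253 and 2663 in SA and 1774, 1513 and 1821 in mock libraries. The SA libraries stood clear of both other groups, which overlapped. The log2 fold change was 0.93 for SA against mock (SE 0.170, adjusted p = 0.00778) and −1.10 for Zip1 against SA (SE 0.170, adjusted p = 0.00527). Both calls held without any 1 of the 9 libraries. Among the SERK genes not called against mock, the fitted log2 fold changes of Zip1 reached from −0.76 to 0.34, and the summed level of the group was 164 to 169 in Zip1, 183 to 194 in SA and 177 to 182 in mock libraries. In this sum the Zip1 libraries were below all others, and the SA libraries above all others. The SERL2 genes Zm00001eb280280 and Zm00001eb380430 had 1255, 1405 and 1368, and 549, 898 and 757 normalised counts in Zip1, with 2004, 1994 and 1743, and 1199, 1179 and 1259 in mock libraries. In neither gene did the Zip1 and mock libraries overlap, and neither was called (log2 fold changes −0.51 and −0.72, adjusted p = 0.113 for both), though DESeq2's Wald test called both. Zm00001eb182940, the SERK2 gene with the next highest mock level after Zm00001eb054260, had 2378, 2608 and 1859 normalised counts in SA and 3546, 3035 and 2993 in mock libraries (log2 fold change −0.48, adjusted p = 0.128), and was called lower under the replicate block (adjusted p = 0.0456).

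Of the brassinosteroid receptors, BRL3 rose with SA and the BRI1 genes were not called. BRL3 is a BRI1-like kinase of rice. Zm00001eb177520 (chromosome 4, 68455780 to 68462402, minus strand) had 462, 515 and 472 normalised counts in Zip1, 925, 699 and 729 in SA and 230, 244 and 373 in mock libraries. The 3 groups did not overlap, with SA highest and mock lowest. The rise with SA was 1.47 on the log2 scale (SE 0.218, adjusted p = 0.00233) and held without any 1 library, whereas the Zip1 difference of 0.77 (adjusted p = 0.143) and that between Zip1 and SA of −0.70 (adjusted p = 0.105) were not called. BRI1, the main brassinosteroid receptor, had tested genes on chromosomes 3 and 8. Zm00001eb154730 had 256, 441 and 287 normalised counts in Zip1, 220, 231 and 128 in SA and 319, 588 and 206 in mock libraries, with overlap of SA and mock. Its log2 fold change was −0.18 with Zip1 and −0.94 with SA (adjusted p = 0.922 and 0.211). Zm00001eb361520 differed by −0.17 with Zip1 and −0.51 with SA.

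Genes outside the named receptor classes held 4 of the 8 rises with SA. Among their 36 tested genes, 1 rose with Zip1, and 4 rose and 2 fell with SA. The SA calls are 16.7% of these 36 (11.1% higher), against 6.22% of all tested genes (5.11% higher). The Zip1 call is 2.78%, against 0.884%. Zm00001eb149670 (chromosome 3, 190582206 to 190590548, plus strand), with the Arabidopsis entry At1g06840, had 724, 786 and 557 normalised counts in Zip1, 2773, 1627 and 2331 in SA and 455, 328 and 586 in mock libraries. The SA libraries did not overlap with any other, and the Zip1 and mock libraries overlapped by a little. Its log2 fold change was 2.30 for SA against mock (SE 0.26, adjusted p = 0.000508) and −1.70 for Zip1 against SA (SE 0.254, adjusted p = 0.00452), and both calls held without any 1 library. It overlaps a WUSCHEL-related homeobox 8 gene on the opposite strand by 782 bases, which averaged 117 normalised counts in Zip1, 110 in SA and 97.0 in mock.

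A gene with the same entry on chromosome 2 also rose with SA. Zm00001eb089740 (118085128 to 118109868, plus strand) had 315, 443 and 465 normalised counts in Zip1, 927, 959 and 960 in SA and 358, 560 and 405 in mock libraries, so that SA stood apart from the other groups. Its log2 fold change was 1.11 for SA against mock (SE 0.211, adjusted p = 0.00989) and −1.22 for Zip1 against SA (SE 0.212, adjusted p = 0.0101), both called without any 1 library. Of the 5 genes with this entry, 3 were tested. The remaining tested one, Zm00001eb290800, had 1152, 446 and 581 normalised counts in SA and 862, 579 and 676 in mock libraries, with full overlap and a log2 fold change of 0.04.

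CaMRLK, an Arabidopsis receptor kinase that binds the calcium sensor calmodulin, was the entry of a gene on chromosome 4 that rose with SA. Zm00001eb204660 (236308196 to 236311190, plus strand) had 198, 284 and 221 normalised counts in Zip1, 689, 782 and 1062 in SA and 107, 195 and 288 in mock libraries. Every SA library exceeded every other, and Zip1 and mock overlapped. The log2 fold change was 2.10 for SA against mock (SE 0.331, adjusted p = 0.00326) and −1.85 for Zip1 against SA (SE 0.327, adjusted p = 0.0109), the difference from SA reaching an adjusted p of 0.0501 without Zip1 replicate 3. A gene with the same entry lies across it on the opposite strand over 2511 bases and averaged 68.7 normalised counts in Zip1, 187 in SA and 48.7 in mock, so reads of the pair may be divided between them. PXC3, a kinase tied to vascular tissue in Arabidopsis, was the entry of Zm00001eb408490 (chromosome 10, 11726332 to 11730711, minus strand). It had 252, 274 and 266 normalised counts in Zip1, 689, 635 and 519 in SA and 368, 265 and 379 in mock libraries, with SA above all others. It rose by 0.86 on the log2 scale with SA (SE 0.199, adjusted p = 0.0258), a call that passed in 5 of the 9 fits without 1 library and reached 0.101 without mock replicate 2. The Zip1 libraries were lower than the SA libraries (log2 fold change −1.22, SE 0.201, adjusted p = 0.00747), which held without any 1 library.

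Genes that fell with SA were spread over several roles. FEI 1 is a kinase of cell wall synthesis in Arabidopsis roots. A gene with this entry, Zm00001eb397950 (chromosome 9, 146474095 to 146480644, minus strand), had 176, 207 and 162 normalised counts in Zip1, 108, 91.7 and 102 in SA and 285, 325 and 233 in mock libraries. The 3 groups did not overlap, with SA lowest. It fell with SA by 1.48 on the log2 scale (SE 0.241, adjusted p = 0.00402), which held without any 1 library. The differences of −0.63 for Zip1 against mock and 0.85 for Zip1 against SA were not called (adjusted p = 0.304 and 0.0798). Zm00001eb011920, also with the entry FEI 1, had 273, 221 and 92.6 normalised counts in SA and 207, 321 and 280 in mock libraries. These overlapped, and the gene was not called (log2 fold change −0.46, adjusted p = 0.579).

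CEPR2, a receptor of C-terminally encoded peptides that signal nitrogen supply in Arabidopsis, was the entry of the 1 gene called among 9 tested in the HAESA, CEPR and RGI class. That is 11.1%, against 6.22% of all tested genes for SA against mock. Zm00001eb145890 (chromosome 3, 177039758 to 177044866, minus strand) had 150, 373 and 164 normalised counts in Zip1, 150, 151 and 61.4 in SA and 354, 339 and 460 in mock libraries. SA lay below mock throughout, and Zip1 overlapped both. The fall with SA was 1.67 on the log2 scale (log2 fold change −1.67, SE 0.418, adjusted p = 0.0391), passed in 3 of the 9 fits without 1 library and reached 0.116 without SA replicate 3. The CEPR1 gene Zm00001eb134240 had 338, 304 and 482 normalised counts in Zip1, 660, 462 and 393 in SA and 824, 792 and 702 in mock libraries, all mock libraries being the highest, but edgeR called neither difference (log2 fold change −1.04, adjusted p = 0.0742 for Zip1, and −0.61, adjusted p = 0.175 for SA). DESeq2's Wald test called the Zip1 difference (adjusted p = 0.00491).

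ZAR1 is a receptor kinase that acts in the first division of the Arabidopsis zygote. A gene with this entry, Zm00001eb090350 (chromosome 2, 124393718 to 124398156, plus strand), had 33.4, 70.0 and 131 normalised counts in Zip1, 13.0, 14.6 and 10.8 in SA and 33.4, 109 and 57.1 in mock libraries. The SA libraries were below all others by a wide gap, and Zip1 and mock overlapped. The log2 fold change was −2.36 for SA against mock (SE 0.620, adjusted p = 0.048) and 2.60 for Zip1 against SA (SE 0.623, adjusted p = 0.0428). Both calls passed in 3 of the 9 fits without 1 library, and on the scale of log2(FPKM + 1) neither was called (adjusted p = 0.197 and 0.146). Zm00001eb411730, also with the entry ZAR1, was not called by edgeR. Its log2 fold change was −1.07 for SA against mock and 0.67 for Zip1 against SA (adjusted p = 0.301 and 0.579).

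**Figure D3:**
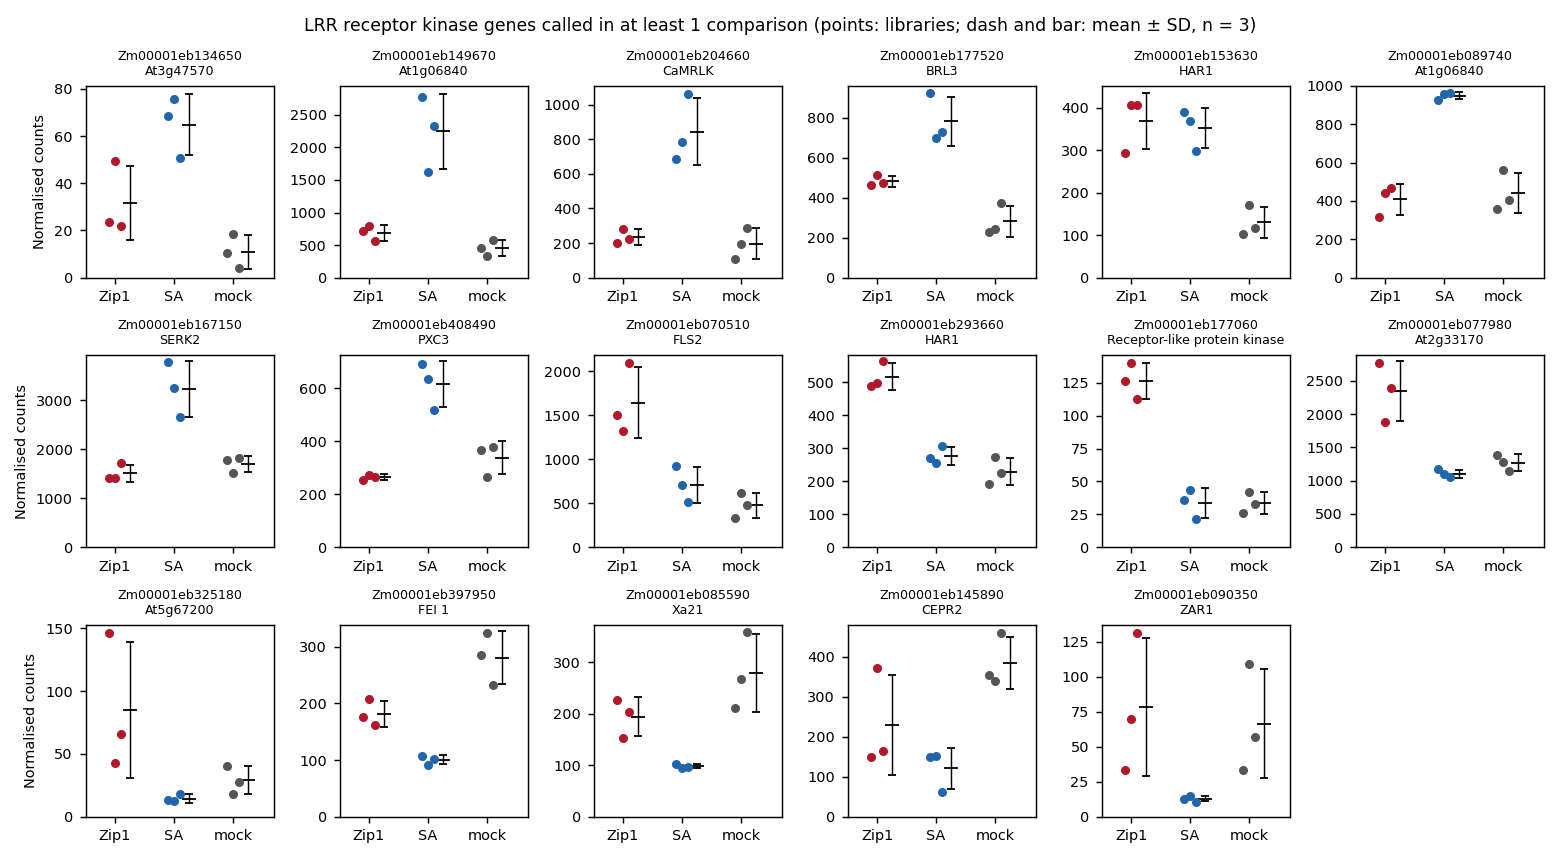
Normalised counts of the 17 receptor kinases called in at least 1 comparison, 1 panel a gene, with Zip1, SA and mock from left to right. Points are libraries, and the dash and bar beside them are the mean ± SD (n = 3); in 8 panels SA stands highest or, for HAR1 (Zm00001eb153630), level with Zip1, in 5 Zip1 stands highest, and in the last 4 SA has the lowest mean.

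Another 3 genes were higher with Zip1 than with SA, of which 1 was also called against mock. Zm00001eb077980 (chromosome 2, 32153012 to 32158462, plus strand), with the Arabidopsis entry At2g33170, had 2772, 1882 and 2396 normalised counts in Zip1, 1169, 1093 and 1052 in SA and 1393, 1275 and 1140 in mock libraries. All Zip1 libraries exceeded all others. It rose by 0.89 on the log2 scale against mock (SE 0.166, adjusted p = 0.0373) and by 1.09 against SA (SE 0.167, adjusted p = 0.00502). The difference from SA held without any 1 library, and the call against mock passed in 3 of 9 such fits, with an adjusted p of 0.125 without mock replicate 1. It overlaps a UDP-glycosyltransferase 92A1 gene on the same strand by 238 bases, which averaged 154 normalised counts in Zip1, 102 in SA and 152 in mock.

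A gene whose entry is an unnamed receptor-like protein kinase of the morning glory Ipomoea nil, Zm00001eb177060 (chromosome 4, 64405015 to 64410690, minus strand), had 126, 140 and 113 normalised counts in Zip1, 35.8, 43.8 and 21.5 in SA and 26.1, 42.3 and 32.5 in mock libraries. Zip1 stood apart from both other groups, which overlapped. The log2 fold change was 1.90 for Zip1 against SA (SE 0.403, adjusted p = 0.0261) and 1.91 for Zip1 against mock (SE 0.404, adjusted p = 0.0571), and the last was called under the replicate block (adjusted p = 0.0359) and by DESeq2's Wald test (adjusted p = 0.000504). Over all tested genes the block called 2.49% for Zip1 against mock, against 0.884% without it, and the pairing was not shown. The direct call passed in 4 of the 9 fits without 1 library, with an adjusted p of up to 0.0832 without Zip1 replicate 2. The kinases described as inactive may act as scaffolds or regulators, since they lack residues that kinases need. Of their 24 tested genes edgeR called 0 against mock, and 1 differed between treatments. The call between treatments is 4.17%, against 4.11% of all tested genes. For the comparisons with mock the background was 0.884% with Zip1 and 6.22% with SA. At an unadjusted p under 0.05 there were 4 for Zip1 and 1 for SA, and 2652 and 4371 of all 23077 tested genes. DESeq2's Wald test called 1 for Zip1 and 0 for SA, against backgrounds of 3.59% and 9.41%. The median log2 fold change was −0.25 with Zip1 and −0.40 with SA. The gene called between treatments was Zm00001eb325180, At5g67200 (chromosome 7, 168940033 to 168942453, minus strand). It had 146, 42.9 and 65.6 normalised counts in Zip1, 13.0, 12.2 and 18.3 in SA and 40.7, 18.5 and 27.6 in mock libraries, with all 3 groups apart. The log2 fold change of Zip1 against SA was 2.54 (SE 0.588, adjusted p = 0.0366), passed in 4 of the 9 fits without 1 library and reached 0.162 without Zip1 replicate 1. That of Zip1 against mock, at 1.55, was not called (adjusted p = 0.282). BIR2 (Zm00001eb425300), which holds BAK1 inactive in Arabidopsis, had log2 fold changes of 0.06 with Zip1 and 0.35 with SA, neither of them called.

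**Figure D4:**
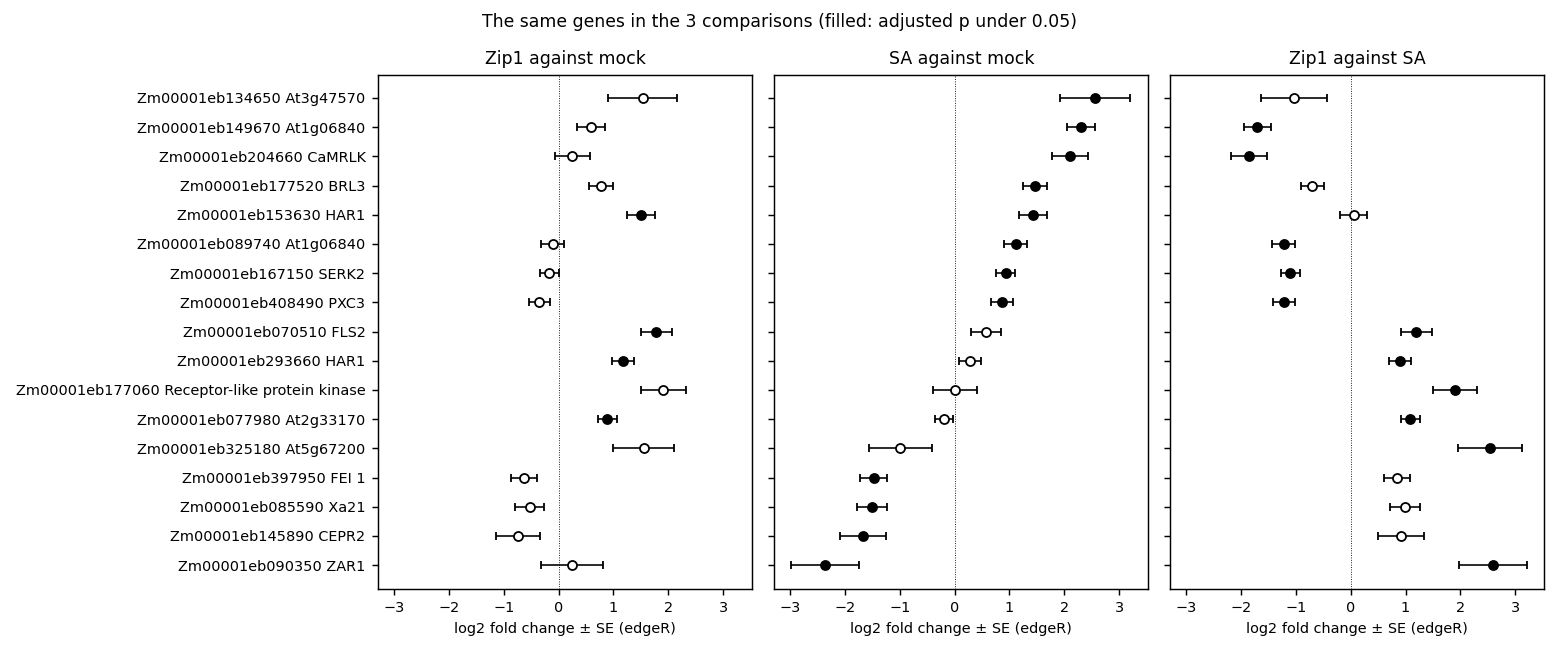
Log2 fold change ± SE (edgeR) of the same 17 genes for Zip1 against mock, SA against mock and Zip1 against SA, filled where the adjusted p is under 0.05. HAR1 (Zm00001eb153630) is filled in both comparisons with mock and lies at 0.06 in the direct one, while 6 of the 11 genes called for SA and not for Zip1 are also filled in the direct comparison.

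In 7 role groups, with 33 tested genes together, edgeR called 0 in each comparison. They were the sulfated peptide receptors (8 tested), the STRUBBELIG family (10 tested), the malectin-type kinases (6), the MSP1 and GSO1 class (3), the ERECTA class (2), the TMK class (2) and the pollen receptors (2). Over all tested genes edgeR called 0.884% for Zip1 against mock, 6.22% for SA against mock and 4.11% for Zip1 against SA. With 33 genes, no trait of these groups is read from the 0 calls. At an unadjusted p under 0.05 there were 4 for Zip1 against mock, 5 for SA against mock and 4 for Zip1 against SA. Of all 23077 tested genes 2652, 4371 and 4019 had such a p. DESeq2's Wald test called 1 of the 33 in each comparison, against backgrounds of 3.59%, 9.41% and 7.59%. Phytosulfokine receptor 1, which senses a sulfated growth peptide, was the entry of Zm00001eb229960. It had 98.0, 87.7 and 32.3 normalised counts in Zip1, 47.7, 30.8 and 46.3 in SA and 135, 119 and 124 in mock libraries, so that mock was highest. Its log2 fold change of −1.60 for SA (adjusted p = 0.0586) was called under the replicate block (adjusted p = 0.0498) and by DESeq2's Wald test (adjusted p = 0.00765). Zm00001eb066630, with the same entry, had 1057, 772 and 957 normalised counts in SA and 712, 668 and 740 in mock libraries, without overlap. Its rise of 0.39 was not called (adjusted p = 0.215). Zm00001eb247800, also with this entry, had a log2 fold change of 0.05 with SA (adjusted p = 0.963). GSO1 (Zm00001eb321900), a receptor for the peptides that seal the root endodermis in Arabidopsis, had 156, 203 and 144 normalised counts in Zip1, 109, 260 and 34.4 in SA and 309, 435 and 244 in mock libraries, with overlap of SA and mock (log2 fold change −1.28, adjusted p = 0.232). The TMK genes, auxin-linked kinases of Arabidopsis, had summed levels of 1.20 to 1.82 in Zip1, 0.965 to 1.62 in SA and 1.97 to 2.39 in mock libraries, with mock above both treated groups and no gene called. The malectin-type gene Zm00001eb239210 (At1g53440) had 189, 157 and 231 normalised counts in Zip1, 83.4, 103 and 111 in SA and 66.8, 87.9 and 60.1 in mock libraries. Its Zip1 libraries stood above all others, and the difference from mock of 1.43 was not called (adjusted p = 0.0567), but was under the replicate block (adjusted p = 0.0481) and by DESeq2's Wald test (adjusted p = 0.000876), which also called Zip1 against SA (adjusted p = 0.0396).

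The main fit had no term for the replicate number, and the labels do not say that it pairs libraries. With the number as a block, SA against mock called 18 receptor kinases, 9 higher and 9 lower, against a background of 9.62%. All 12 were among them. The falls gained were SERK2 (Zm00001eb182940), phytosulfokine receptor 1 (Zm00001eb229960), GSO1 (Zm00001eb321900), At3g47110 (Zm00001eb261340) and the inactive kinase RLK902 (Zm00001eb399890), and the rise gained was At1g74360 (Zm00001eb326660), at 0.76 on the log2 scale. Leaving out 1 library gave 9 to 13 SA calls, and 9 without mock replicate 1, 2 or 3 or SA replicate 3. Over all tested genes the fits without 1 library called 3.54% to 5.97%, against 6.22% with all libraries. The share was 3.72%, 3.73% and 5.17% without mock replicates 1, 2 and 3, and 3.54% without SA replicate 3. The Zip1 count was less firm, at 0 without mock replicate 1 and without Zip1 replicate 3, with 27 receptor kinases at an unadjusted p under 0.05 in each of these fits. Over all genes tested, these fits called 0 without mock replicate 1 and 102 without Zip1 replicate 3. The receptor kinase count was 1 without mock replicate 3 and 2 without mock replicate 2, Zip1 replicate 1 or Zip1 replicate 2. Over all genes tested these fits called 0.69%, 0.173%, 0.492% and 0.236% in that order. Zip1 against SA gave 5 calls without Zip1 replicate 3, and 7 without Zip1 replicate 1 or SA replicate 3. The shares over all tested genes were 1.92%, 2.1% and 2.15% in these fits, against 4.11% with all libraries.

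Signalling partners of the receptors outside the family were described by 10 lists drawn from protein entries, which held 149 tested genes. With SA 8 of them were called against mock, 7 higher and 1 lower, and 5 differed between Zip1 and SA. These are 5.37% and 3.36% of the lists, under the backgrounds of 6.22% and 4.11%. For Zip1 against mock edgeR called 0, with 16 at an unadjusted p under 0.05 and 4 called by DESeq2's Wald test. The backgrounds were 0.884% for edgeR and 3.59% for DESeq2's Wald test, and 2652 of the 23077 tested genes had such an unadjusted p. Among receptor-like cytoplasmic kinases, which carry the signal away from the receptor, 3 of 58 tested genes rose with SA, and the median log2 fold change was 0.07 with Zip1 and 0.05 with SA. RIPK (Zm00001eb040450), which phosphorylates the immune regulator RIN4 in Arabidopsis, had 111, 105 and 86.6 normalised counts in Zip1, 346, 223 and 349 in SA and 69.9, 49.9 and 29.5 in mock libraries, with the 3 groups apart. Its log2 fold change was 2.62 for SA against mock (SE 0.358, adjusted p = 0.00152) and −1.60 for Zip1 against SA (adjusted p = 0.0268). BSK1-2 (Zm00001eb022440), a rice kinase of the brassinosteroid-signalling class, rose by 1.60 with SA (adjusted p = 0.00223), and the calmodulin-binding kinase CRCK2 (Zm00001eb191110) by 0.91 (adjusted p = 0.0381). The log2 fold changes of Zip1 against SA were −0.95 for BSK1-2 and −1.62 for CRCK2 (adjusted p = 0.0443 and 0.00346). Leaving out 1 library ended some of these calls: that of CRCK2 with SA in 6 of 9 fits (up to 0.137 without SA replicate 1), and those of Zip1 against SA for BSK1-2 in 6 (up to 0.148 without Zip1 replicate 1) and for RIPK in 5 (up to 0.105 without Zip1 replicate 3).

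In the other lists at most 1 gene was called for SA against mock. Of 9 tested respiratory burst oxidases, which make superoxide at the cell surface, RBOHH (Zm00001eb148780) rose by 2.83 on the log2 scale (adjusted p = 0.0119), with 217, 258 and 234 normalised counts in Zip1, 588, 317 and 1194 in SA and 115, 35.8 and 143 in mock libraries, the 3 groups apart, though it overlaps another gene. Of 12 tested LysM receptors, which bind chitin and related sugars, LYK3 (Zm00001eb153700) fell by 1.41 with SA (log2 fold change −1.41, adjusted p = 0.00165) and was higher with Zip1 than with SA by 1.11 (adjusted p = 0.0103). Of 10 tested genes in the G protein list, the extra-large G protein XLG3 (Zm00001eb268840) rose with SA by 1.25 (adjusted p = 0.00183), and RACK1A (Zm00001eb342960), a scaffold protein and not a G protein subunit, was higher with Zip1 than with SA by 1.17 (adjusted p = 0.0167), a call lost in 3 of the 9 fits without 1 library (up to 0.0653 without SA replicate 3). The U-box ligase PUB12 (Zm00001eb379620), 1 of 5 tested, rose with SA by 0.91 (adjusted p = 0.00439). Receptor-like protein 49 (Zm00001eb123520), 1 of 10 tested receptors with repeats and no kinase, rose by 2.66 (adjusted p = 0.0425), a call lost in 7 of the 9 fits without 1 library (up to 0.135 without mock replicate 2). edgeR called 0 in each comparison among 13 cyclic nucleotide-gated channels, 7 FERONIA-class kinases, 19 brassinosteroid signalling genes and 6 precursors of secreted peptides. Of these 45 genes, 3 had an unadjusted p under 0.05 for Zip1 against mock, 5 for SA against mock and 3 for Zip1 against SA. DESeq2's Wald test called 0, 2 and 0. The edgeR backgrounds were 0.884%, 6.22% and 4.11%, so no trait of these lists is read from the 0 calls.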

How the data were processed

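Messenger RNA was measured in 9 libraries, 3 for each of 3 treatments, grouped by the treatment the labels give. The authors deposited raw counts per gene and library, with a length, a position, a protein entry and Pfam domains for each gene. The submitters' processing notes name HISAT2 2.0.5, featureCounts 1.5.0-p3 and DESeq2 1.20.0, with no role for each. The genome build and the strand setting of the counting are not given in the sources used here. A second deposited table held FPKM values, in which 160757 of 357795 cells (44.9%) had lost their decimal point. Counts and gene lengths served to put the point back, and 0 cells could not be restored. The number of value columns that matched no library was 0.

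Counts were tested with edgeR 4.0.16 in R 4.3.3. filterByExpr kept 23077 of 39755 genes, 9125 of which had no count, and TMM factors set the effective library sizes. The robust quasi-likelihood F test used all 9 libraries and a term for the group. Benjamini-Hochberg adjustment ran over the 23077 genes, with 0.05 as the threshold for a call. The common dispersion of 0.118 corresponds to a biological coefficient of variation of 34.4%. The script was tested on simulated counts. SEs were derived from the log2 fold change and F (size divided by the root of F) and are approximate. Normalised counts are scaled to the mean effective library size. Levels are counts per kilobase of an effective library of 1000000. A library at 3 counts or fewer was taken as at the floor, which covers counting error only, since no molecular identifiers were used. Between SA and mock, deviations from the group means correlated at 0.154, 0.164 and 0.130 for samples of replicate number 1 to 3. Unlike numbers were not compared, so pairing was not shown, and the number as a block is an alternative only.

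The receptor kinases, the role groups and the partner lists were chosen with earlier results of these data known, and the role patterns were redrawn after the protein entries were read. By rule the text could name up to 10 called rises and 10 falls per comparison whose higher group averaged 50 normalised counts or more, every gene called for Zip1 against mock, the 10 highest in mock, up to 3 of the highest level and 2 of the lowest p in each role group, and up to 2 of the lowest p in each partner list and comparison with mock. Other genes named were chosen after their values were seen. Alternatives were DESeq2 size factors, no filter, a filter of 10 counts in 3 libraries, the replicate number as a block, the 6 libraries compared, DESeq2 1.42.0's Wald test, limma 3.58.1 on log2(FPKM + 1), an adjusted p under 0.01, and each library left out. Sequences of these genes were not used here.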

Additional observations from a re-analysis of the deposited data

How the results depend on the processing

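The count of called receptor kinases moved with the setting. For Zip1 against mock (4 called) it was 0 at an adjusted p under 0.01, with 36 at an unadjusted p under 0.05 and 14 by DESeq2's Wald test, 8 higher and 6 lower. It was 8 with the replicate number as a block, 1 by limma on log2(FPKM + 1), and 0 to 5 with 1 library left out. Over all tested genes the share was 0.0173% at an adjusted p under 0.01 and 3.59% by DESeq2's Wald test. It was 2.49% with the block, 0.633% by limma and 0 to 1.02% with 1 library left out, against 0.884%. For SA against mock (12 called) DESeq2 gave 20, 12 higher and 8 lower, and leaving out 1 library gave 9 to 13, within 1.5 times. Over all tested genes these settings called 9.41% and 3.54% to 5.97%, against 6.22%. For Zip1 against SA (11 called) DESeq2 gave 26, 12 higher and 14 lower, an adjusted p under 0.01 gave 4, and leaving out 1 library gave 5 to 11. Over all tested genes these settings called 7.59%, 1.28% and 1.92% to 4.04%, against 4.11%. The cause of these shifts was not tested, other than the stricter threshold. With the block Zip1 against SA gave 12, with 5 higher and 7 lower with Zip1, and limma on log2(FPKM + 1) gave 8, with 3 higher and 5 lower, against 6 higher and 5 lower. For this comparison the block called 6.73% and limma 4.68% of all tested genes. Replicate numbers were not shown to pair any of the groups. For Zip1 the correlations of deviations were 0.160, 0.0745 and 0.158 with mock and 0.0759, 0.157 and 0.0870 with SA. Over all named genes and comparisons, 5404 values kept their side of the threshold, 107 lost the call and 99 gained it. No called value changed sign, and 145 uncalled ones did. Of 40 calls, 21 held in every alternative fit, and 18 of these also passed an adjusted p under 0.01. The median mock level of 1.24 became 1.21 by FPKM and 1.15 to 1.29 with 1 mock library left out. The rule found 150 genes with PF00069 required and 145 with PF08263 required. Low counts limit 62 of the 210 genes, which were not tested.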
